A study of Glycine max with 12 samples.

Results

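Heat stress alone was compared with control in leaves of soybean (Glycine max), using 3 RNA sequencing libraries of heated plants and 3 of control plants. The plants were wild type, the cultivar given in the labels is Magellan (PI595362), and all were raised in growth chambers with regular watering, so the controls and the heated plants share everything the labels name apart from the heat. Of the 55051 genes in the deposited table, 33000 averaged 10 normalized counts or more over these 6 libraries and were tested, 12787 had no read in any of the 6 and 9264 lay under the mean of 10. The series also holds 3 libraries of plants under water deficit and 3 under water deficit and heat together (combined stress), which entered the same fit and are used here for the estimate of spread and for a few side by side values. The labels give no temperature, length of exposure, plant age or hour of harvest. Libraries are numbered 1 to 3 in the order of the records, which names them and pairs none, and values of a gene are given in that order. Nothing in the labels says that they came from separate plants, so the p-values measure the spread between these libraries, which may be technical. In whole leaves, fewer cells of a type and less RNA per cell cannot be told apart.

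When plant cells are heated, proteins unfold, and heat shock transcription factors (HSFs) switch on genes for chaperones. Small heat shock proteins hold unfolded proteins in a soluble state, HSP70 and its J-domain and BAG partners refold or hand them on, and HSP90 and BiP, the HSP70 of the endoplasmic reticulum, assist maturing proteins. Heat is also known to disturb photosynthesis, whose proteins need iron and copper, metals that catalyse the formation of reactive oxygen when they are free. Temperature is one of the cues that set flowering time through the florigen (FT) family.

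The 6 libraries held 26077068 to 44024140 reads. They carried leaf transcripts, and LOC100805310, a chlorophyll a/b binding protein gene, took the most reads in all 6. Of 4 leghemoglobin symbols, nodule markers, 3 were at 0 in all 6 libraries and the highest single value was 0.9 normalized counts. Of 9 seed storage symbols (glycinin and conglycinin), 8 were at 0 in all 6 and the highest value was 2.8. Heat stress library 3 stood apart from libraries 1 and 2. Across genes, Pearson's r on log2(value + 1) was 0.961 between heat stress libraries 1 and 2, but 0.888 and 0.884 between them and library 3. Library 3 correlated more closely with each of control libraries 1, 2 and 3 (0.924, 0.949 and 0.921). Genes, 33000 here, are the points of these correlations and no independent replicates. Results are therefore given with and without that library, and its own values are stated where it departs.

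With limma, 1053 genes (3.19% of those tested) differed between heat stress and control at an adjusted p under 0.05. Of these, 584 (1.77%) were higher and 469 (1.42%) lower in heat. These shares are the background for the counts of list members called in the same fit, given below. Among the higher genes, 409 changed at least 2-fold, 112 at least 4-fold and 44 at least 8-fold, and among the lower genes 364, 138 and 46 did so. The median log2 change was 1.23 over the genes that rose, -1.45 over those that fell and -0.004 over all genes tested. Without adjustment, 6964 genes had a p under 0.05. In all 1053 called genes the heat and control libraries did not overlap, as in 8838 (26.8%) of all genes tested. Groups that lie apart are therefore no further support for a call. Without heat stress library 3 the fit called 4761 genes (14.4%), 2392 higher (7.25%) and 2369 lower (7.18%), and these included 1052 of the 1053 in the same direction. Leaving out any other single library cut the count to between 150 and 253, and 115 genes (76 higher, 39 lower) were called in the full fit and in all 6 fits that each left out 1 library. The spread was estimated over all 12 libraries, and with only the 6 compared the count was 333. Log2 changes are given ± their standard error on the log2(normalized count + 1) scale. For each gene named below as risen or fallen, apart from HSP6834-A, the text says in how many of these 6 fits the call was lost. A call lost in 5 is one that held only without heat stress library 3.

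**Figure D1:**
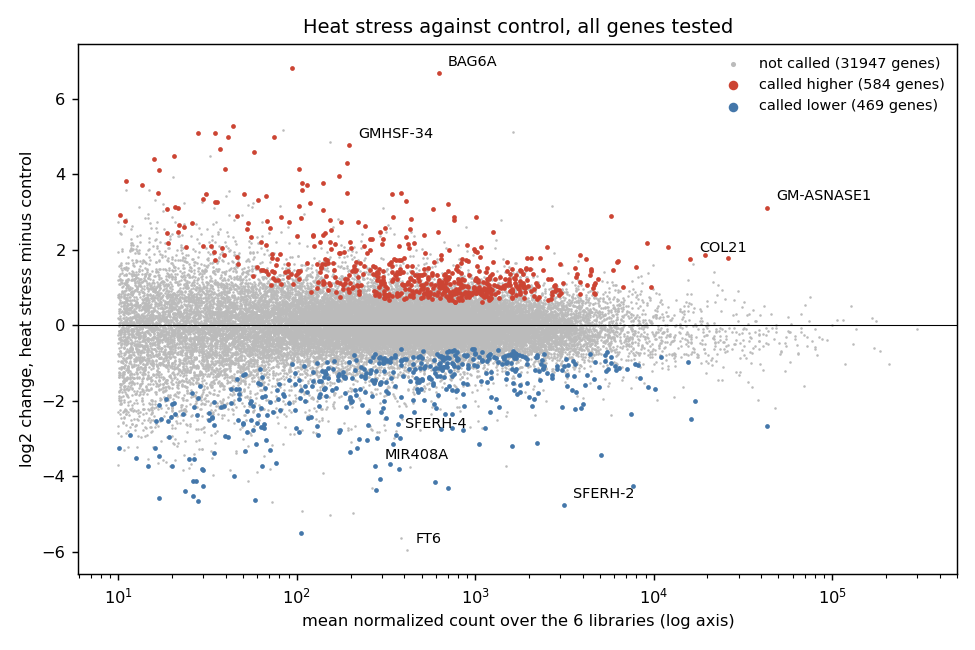
Log2 change (heat stress minus control, vertical axis) of each of the 33000 genes tested against its mean normalized count over the 6 libraries (horizontal axis, log scale). Red points are the 584 genes called higher and blue points the 469 called lower; BAG6A has a log2 change of 6.69, and FT6, at -5.96, is grey because it was not called.

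BAG6A, of the BAG family of co-chaperones that bind HSP70, had the largest rise of any gene with a mean of at least 100. Its normalized counts were 6.2, 6.9 and 20.9 in the controls and 602.8, 1151 and 1948 in the heat libraries. All 3 heat libraries lay far above the controls, library 3 highest of all, with a log2 change of 6.69 ± 0.56 (limma adjusted p 0.000645). The small heat shock protein list held 10 symbols, of which 8 passed the filter on low values, and 4 of the 8 rose and none fell. HSP6834-A, an HSP symbol that this list did not take, was also called higher (3.31 ± 0.57 (limma adjusted p 0.0138)). Its leave-one-out results are not given here. The list's median log2 change was 2.84. The 4 that rose are genes of cytosolic (class I) small heat shock proteins. HSP17.3-B had 8.8, 3.8 and 12.6 in the controls and 132.4, 392.2 and 67 in the heat libraries, with a log2 change of 4.15 ± 0.62 (limma adjusted p 0.00825). HSP18.5-C had 192.1, 208.8 and 287.6 in the controls and 1564, 2706 and 1088 in the heat libraries, with a log2 change of 2.87 ± 0.59 (limma adjusted p 0.0266). HSP17.5-E had 126.0, 142.5 and 217.6 in the controls and 834.8, 1222 and 565.3 in the heat libraries, with a log2 change of 2.39 ± 0.29 (limma adjusted p 0.00408). In each of these genes heat stress library 2 was highest and library 3 lowest of the heat libraries, and library 3 was still above every control. HSP17.5-M differed in order, with library 3 highest (32.8, 63.2 and 76.8 against 6.2, 2.3 and 4.2 in control), and a log2 change of 3.48 ± 0.68 (limma adjusted p 0.0227). The calls of BAG6A, HSP17.3-B and HSP17.5-E held in all 6 fits that left out a library. Those of HSP18.5-C and HSP17.5-M were lost in 5 fits (limma adjusted p up to 0.101 and 0.0953).

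The other 4 small heat shock protein genes did not pass, and in each of them library 3 was the lowest of the heat libraries. HSP22.3 stood at 314.0 and 560.4 in heat libraries 1 and 2 and 54.5 in library 3, against 17.5 to 42.9 in control. HSP22.0 had 78.2 and 143.1 in libraries 1 and 2 and 8 in library 3, which is below all 3 controls (11.4 to 34.4). HSP22.5 was at 20.2 and 54.8 and 5.4, within its control range of 0 to 6.3. Their log2 changes without library 3 were 3.8 (limma adjusted p 0.0134), 2.38 (limma adjusted p 0.0242) and 3.66 (limma adjusted p 0.0218), all called there, and in the full fit 2.83 (limma adjusted p 0.105), 1.19 (limma adjusted p 0.465) and 2.85 (limma adjusted p 0.107). HSP23.9, with the highest mean count of the list, had 852.9, 841.1 and 1341 in the controls and 3186, 4335 and 1473 in the heat libraries, 1.47 (limma adjusted p 0.29) in the full fit and 1.91 (limma adjusted p 0.142) without library 3, called in neither.

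Of 39 HSF symbols, 35 were tested, 3 rose and none fell, and the median log2 change was 0.42. GMHSF-34 had 6.2, 10.7 and 26.1 in the controls and 283.7, 579.9 and 275.9 in the heat libraries, with a log2 change of 4.77 ± 0.51 (limma adjusted p 0.00199). Its lowest heat library was more than 10 times its highest control. GMHSF-30 had 20.3, 4.6 and 24.1 in the controls and 283.7, 455.4 and 56.3 in the heat libraries, so library 3 lay closest to the controls without overlapping them, with a log2 change of 3.76 ± 0.85 (limma adjusted p 0.0389). GMHSF-20, already present in control leaves, had 600.9, 385.5 and 565.9 in the controls and 1847, 1402 and 1360.0 in the heat libraries, with a log2 change of 1.58 ± 0.32 (limma adjusted p 0.0251). The call of GMHSF-34 held in all 6 leave-one-out fits, and those of GMHSF-30 and GMHSF-20 were lost in 5 (limma adjusted p up to 0.151 and 0.115). Without library 3, 9 HSF genes were called higher (7.25% of all genes were), among them GMHSF-04, with the highest mean count of the list, at 1389, 1297 and 1225 in control and 2557, 2045 and 1533 in heat. Its log2 change was 0.81 (limma adjusted p 0.00833) without library 3 and 0.62 (limma adjusted p 0.0862) with it. In heat stress libraries 1, 2 and 3 respectively, 25, 26 and 13 of the 35 HSF genes exceeded all 3 controls, and 4, 5 and 15 were below all 3. Over all genes tested, 36.4%, 35.7% and 34.6% were above and 35.6%, 35% and 35.9% below all 3 controls in these libraries, so the counts of library 3 lie near that background.

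Larger chaperones and co-chaperones, BAG6A among them, formed a list of their own. Of 8 symbols tested, BAG6A and HSP70 rose and none fell, and the list's median log2 change was 0.54. HSP70 had 193.8, 299.4 and 273.0 in the controls and 395.9, 839.2 and 1082 in the heat libraries, library 3 again highest, with a log2 change of 1.5 ± 0.33 (limma adjusted p 0.0363). That call was lost without control library 1, 2 or 3 or heat stress library 2 (limma adjusted p up to 0.131). The HSP90 genes overlapped between groups. HSP90-1 had 6522, 7785 and 8154 in control and 7616, 10155 and 4758 in heat, and HSP90-2 had 4378, 5663 and 5212 and 6586, 8219 and 3726, with log2 changes of -0.06 (limma adjusted p 0.958) and 0.21 (limma adjusted p 0.847). In both, heat stress library 3 was below all controls. GMBIP4, a BiP gene, had 2062, 2164 and 2572 in control, 8537 and 14555 in heat libraries 1 and 2 and 1731 in library 3. Its log2 change was 2.3 (limma adjusted p 0.0186) without library 3 and 1.41 (limma adjusted p 0.273) with it. A J-domain gene, DNAJ, had the highest mean count of the list, with 11779.7, 9298 and 14418 in control and 30985, 23503 and 7164 in heat, library 3 again below the controls, and was not called with or without that library (0.57 (limma adjusted p 0.604) and 1.21 (limma adjusted p 0.12)).

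**Figure D2:**
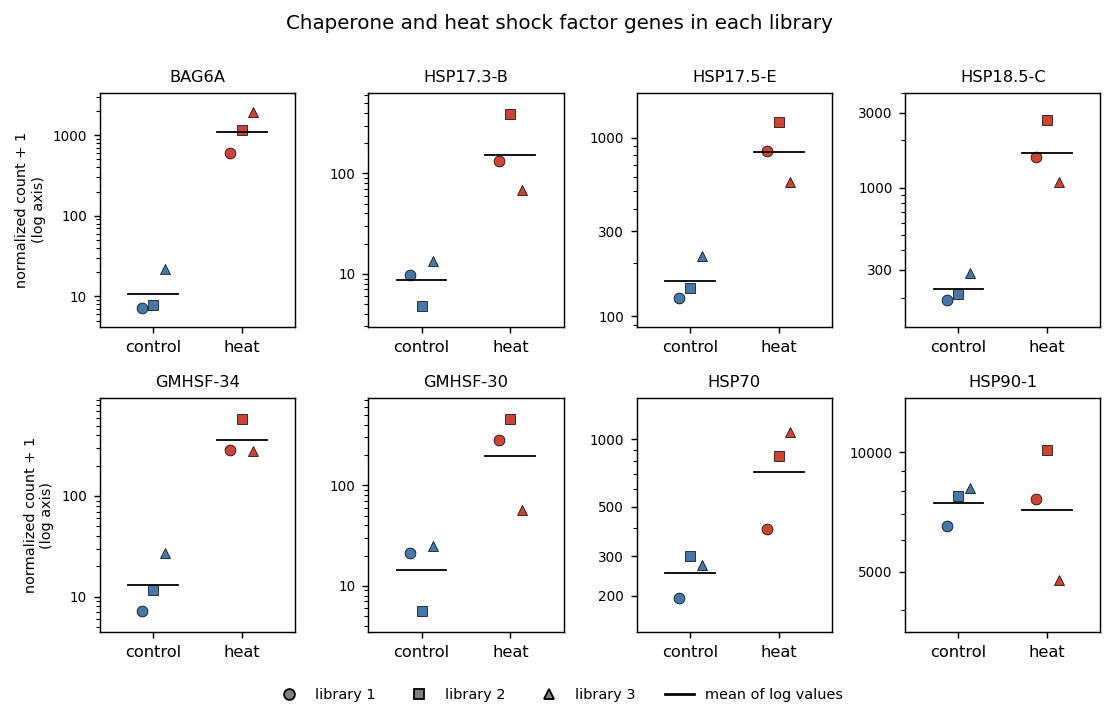
Normalized count + 1 (log axis) of 8 chaperone and HSF genes in the 3 control (blue) and 3 heat stress (red) libraries; circles, squares and triangles are libraries 1, 2 and 3 and the line is the mean of the log values. The heat libraries of BAG6A, HSP17.3-B, HSP17.5-E, HSP18.5-C, GMHSF-34, GMHSF-30 and HSP70 lie above all controls, while those of HSP90-1 overlap them.

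Ferritin genes fell together, with a single exception. Ferritin is the plastid protein shell that stores iron, and soybean has several genes for it. Of 19 symbols on the list of ferritins and iron genes, 14 were tested, 5 fell and none rose, and the median log2 change was -0.7. SFERH-2 had 8749, 6834 and 2207 in the controls and 117.3, 67.8 and 801.0 in the heat libraries. H-1, listed by RefSeq under the synonym SFerH-1, had 1824, 1458 and 694.5 in the controls and 85.7, 16.7 and 150.0 in the heat libraries. FER2-1 had 630.0, 633.1 and 470.7 in the controls and 22.7, 16.7 and 218.8 in the heat libraries, and SFERH-4 had 615.0, 659.8 and 610.8 in the controls and 56.7, 64.1 and 151.8 in the heat libraries. In all 4 genes the heat libraries lay below every control, as in every gene called lower, and library 3 was the highest of the heat libraries. Their log2 changes were -4.77 ± 1.0 (limma adjusted p 0.0293), -4.32 ± 0.68 (limma adjusted p 0.00966), -3.67 ± 0.74 (limma adjusted p 0.0255) and -2.92 ± 0.48 (limma adjusted p 0.0117). SFERH-3 was the exception, with 3440.5, 3017 and 3719 in the controls and 3605, 3353 and 4922 in the heat libraries and a log2 change of 0.21 (limma adjusted p 0.566). A metal transporter gene, GMNRAMP6B, fell from 363.9, 368.8 and 359.8 to 145.0, 121.7 and 193.8, with a log2 change of -1.27 ± 0.19 (limma adjusted p 0.00825), and its call held in all 6 leave-one-out fits.

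The calls of the 4 ferritin genes held without heat stress library 3 and were sensitive to the other libraries. SFERH-2, FER2-1 and SFERH-4 were lost in 5 leave-one-out fits (limma adjusted p up to 0.128, 0.12 and 0.0634), and H-1 without control library 1 or 2 (up to 0.0537). With only the 6 libraries in the fit the calls of SFERH-2 and FER2-1 were lost (limma adjusted p 0.0565 and 0.0857), as they were with edgeR on the recovered reads (adjusted p 0.0628 and 0.0751). The ferritin genes are close copies of one another, and how reads were divided among copies is not stated in the sources used here, so the values of single members are uncertain to that extent. DMT1, a divalent metal transporter gene, differed between the heat libraries, with 1308 and 3271 in libraries 1 and 2 and 282.2 in library 3 against 175.2 to 466.5 in control. Its log2 change was 2.83 (limma adjusted p 0.00575) without library 3 and 1.87 (limma adjusted p 0.157) with it.

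Several precursors of microRNAs that plants are known to use under copper shortage also fell, 4 of the 7 tested. The symbols MIR397, MIR398 and MIR408 count reads of the precursor transcripts, not of the mature microRNAs, and this list of copper and superoxide genes was drawn up after the values were seen. Of 16 symbols, 13 were tested, 4 fell and 2 rose, and the median log2 change was -1.04. MIR408A had 546.3, 451.0 and 509.4 in the controls and 13.9, 35.3 and 97.3 in the heat libraries, with a log2 change of -3.74 ± 0.52 (limma adjusted p 0.00644). MIR408C had 80.2, 114.3 and 82.6 in the controls and 6.3, 14.9 and 17.9 in the heat libraries, with a log2 change of -2.83 ± 0.45 (limma adjusted p 0.00988). MIR397A had 49.3, 48 and 51.3 in the controls and 0, 1.9 and 7.1 in the heat libraries, with a log2 change of -4.14 ± 0.69 (limma adjusted p 0.012). All 3 precursors were lower in each heat library than in any control. MIR408D fell as well, from 974.4, 866.3 and 634.9 to 214.4, 373.6 and 345.6, with a log2 change of -1.42 ± 0.24 (limma adjusted p 0.0126). The 2 genes that rose were SOD1, a superoxide dismutase gene, and CCS, the gene of the copper chaperone that loads superoxide dismutase. SOD1 had 740.1, 743.6 and 920.4 in the controls and 2373, 2580.0 and 1639.5 in the heat libraries, with a log2 change of 1.44 ± 0.23 (limma adjusted p 0.01). CCS had 206.2, 189.7 and 198.7 in the controls and 360.6, 378.3 and 306.3 in the heat libraries, with a log2 change of 0.81 ± 0.17 (limma adjusted p 0.0319). Of the iron superoxide dismutase genes, SODB2 had 74348, 67516 and 88843 in control against 30665, 39169 and 47941 in heat. SODB had 51500.1, 47842 and 56934 in control against 18123, 21444 and 41467 in heat. Neither passed the test (log2 changes of -0.98 (limma adjusted p 0.129) and -1.04 (limma adjusted p 0.116)). Their groups do not overlap, as in 26.8% of all genes tested.

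The other 3 of these precursors, MIR397B, MIR398C and MIR398D, were not called, and library 3 was the highest of their heat libraries. MIR397B had 193.8, 245.3 and 136.0 in control and 89.5, 115.2 and 234.9 in heat (-0.47 (limma adjusted p 0.47)). MIR398C had 99.6 and 105.9 in libraries 1 and 2 and 638.5 in library 3, against 350.4 to 664.4 in control, and MIR398D had 18.9 and 43.7 and 141.1 against 84.6 to 149.3. Library 3 was thus above 2 of the 3 controls in either gene, and their log2 changes were -2.18 (limma adjusted p 0.00152) and -1.8 (limma adjusted p 0.0323) without it. The call of MIR408A held in all 6 leave-one-out fits. MIR408C was lost without control library 2, SOD1 without heat stress library 1 or control library 1 or 2, and MIR397A without any one control library (limma adjusted p up to 0.0581, 0.0562 and 0.062). MIR408D and CCS were lost in 3 and 5 of these fits (up to a limma adjusted p of 0.0664 and 0.126). Among all 69 microRNA precursor symbols tested (of 550 in the table), 5 fell and none rose, against 1.42% and 1.77% of all genes tested. The fifth was MIR4415A, which fell from 294.3, 287.2 and 368.2 to 71.9, 80.9 and 88.4 with a log2 change of -1.96 ± 0.23 (limma adjusted p 0.00367). Its call held in all 6 leave-one-out fits.

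GM-ASNASE1, named for asparaginase, the enzyme that splits asparagine into aspartate and ammonium, rose in all 3 heat libraries. Its normalized counts were 7774, 8988 and 9592 in the controls and 92927, 55788 and 84845 in the heat libraries. The means were 8785 ± 925.9 in control and 77853 ± 19532 in heat stress (SD, n = 3 each), with a log2 change of 3.12 ± 0.34 (limma adjusted p 0.00215), and the call held in all 6 leave-one-out fits. AS2, named for asparagine synthetase, which makes asparagine from aspartate, had 125.1, 71.6 and 126.6 in the controls and 0, 1.9 and 25.9 in the heat libraries. GS1GAMMA2, a gene of cytosolic glutamine synthetase, had 62.6, 38.1 and 48.1 in the controls and 0, 0 and 8.9 in the heat libraries. Both were at or near 0 in heat libraries 1 and 2, while library 3 kept a part of the control level. Their log2 changes were -4.63 ± 0.97 (limma adjusted p 0.0293) and -4.53 ± 0.84 (limma adjusted p 0.0187), on a scale that understates the change of low genes. On a list of nitrogen genes drawn up after the values were seen, 29 of 36 symbols were tested, 2 rose and 4 fell, and the median log2 change was -0.33. NIR (nitrite reductase) also rose, from 549.8, 527.2 and 801.2 to 1809.5, 1463 and 1076, with a log2 change of 1.2 ± 0.23 (limma adjusted p 0.0204). GDH1 (glutamate dehydrogenase) and GAD (glutamate decarboxylase) fell, with log2 changes of -0.94 (limma adjusted p 0.0323) and -0.85 (limma adjusted p 0.0489). GS-2, with the highest mean count of the list, overlapped between groups at 38362, 43319.5 and 55216 in control and 38103, 31889.9 and 54572 in heat. The calls of AS2 and GS1GAMMA2 were lost in 5 leave-one-out fits (limma adjusted p up to 0.11 and 0.0887) and with edgeR on the recovered reads (adjusted p 0.0627 and 0.0528). NIR was lost in 4 leave-one-out fits and GDH1 and GAD in 5 (limma adjusted p up to 0.0967, 0.141 and 0.161).

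**Figure D3:**
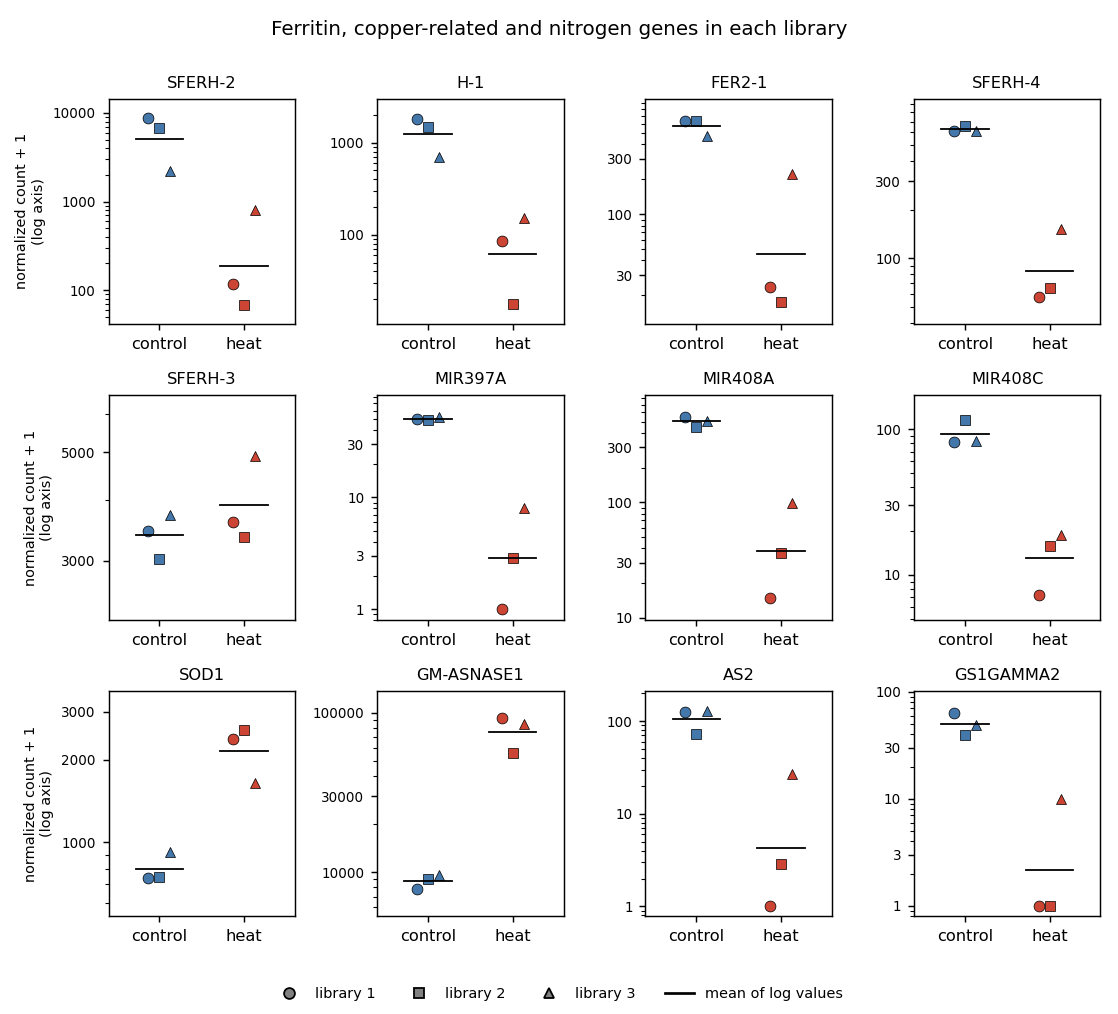
Normalized count + 1 (log axis) of 5 ferritin genes, 3 microRNA precursors, SOD1 and 3 nitrogen genes in the 3 control (blue) and 3 heat stress (red) libraries; circles, squares and triangles are libraries 1, 2 and 3 and the line is the mean of the log values. All panels but SFERH-3 show groups that do not overlap, with GM-ASNASE1 rising from 7774 to 9592 in control to 55788 to 92927 in heat.

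Genes of beta-carotene hydroxylase, which makes the xanthophylls that protect the photosystems, rose. On a list of carotenoid genes drawn up after the values were seen, all 8 symbols were tested, 3 rose and none fell, and the median log2 change was 0.8. BCH4 had 517.2, 342.1 and 426.7 in the controls and 1574, 1548 and 1072 in the heat libraries, BCH2 had 104.8, 45 and 75.3 in the controls and 351.8, 280.7 and 195.6 in the heat libraries and BCH5 had 103.1, 88.4 and 113.0 in the controls and 332.9, 286.2 and 368.8 in the heat libraries. The heat libraries were above all controls in each, with log2 changes of 1.7 ± 0.26 (limma adjusted p 0.00835), 1.91 ± 0.37 (limma adjusted p 0.0219) and 1.69 ± 0.38 (limma adjusted p 0.0396). BCH3 had 237.0, 192.8 and 235.3 in control and 314.0, 413.6 and 405.4 in heat and was not called (0.76 (limma adjusted p 0.153)). ZEP (zeaxanthin epoxidase), with the highest mean count of the list, had 15162, 18753 and 14288 in control and 10926, 8968 and 25236 in heat, with library 3 above and libraries 1 and 2 below the controls, and -0.24 (limma adjusted p 0.764). The call of BCH4 held in all 6 leave-one-out fits, and those of BCH2 and BCH5 were lost in 4 and 5 of them (limma adjusted p up to 0.105 and 0.14).

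None of the 13 photosynthesis genes tested passed, a list too short to tell this from the background of 3.19%. Their median log2 change was -0.52. These include genes of the Rubisco small subunit, Rubisco activase, the light-harvesting proteins and subunits of the photosystems. LOC100805310, a light-harvesting gene with the highest mean count of the list, had 251884, 218237 and 478353 in the controls and 271418, 210979.8 and 372078 in the heat libraries. CAB3, another light-harvesting gene, had 168250.0, 168894 and 288052 and 96241, 66505 and 318014, and RBCS-1, of the Rubisco small subunit, 230955, 188478 and 432675 and 170814, 118991 and 108318. Control library 3 was above the other controls in all of these. In heat stress libraries 1, 2 and 3, 8, 12 and 5 of the 13 genes were below all controls and 1, 1 and 6 above them, against 35.6%, 35% and 35.9% of all genes tested below and 36.4%, 35.7% and 34.6% above. Rubisco activase keeps Rubisco active and is known to be heat labile. RCA03, an activase gene, had 101.3, 112.8 and 95.2 in the controls and 214.4, 400.6 and 1787 in the heat libraries, and just missed the threshold with a log2 change of 2.37 ± 0.59 (limma adjusted p 0.0516). RCAALPHA had 76458 in heat stress library 3, against 23222 to 35988 in control and 17752 and 14312 in heat libraries 1 and 2. RCABETA had 232169.5 in library 3, against 77729 to 105504 in control and 72948 and 58912 in libraries 1 and 2. Of 11 genes of chlorophyll metabolism, a list also drawn up after the values were seen, NYC1_2 (chlorophyll b reductase, an early step of chlorophyll breakdown) fell and none rose. It had 5782, 5800.4 and 6426 in the controls and 2498, 1927 and 2874 in the heat libraries, with a log2 change of -1.32 ± 0.23 (limma adjusted p 0.0154), and its call was lost in 5 leave-one-out fits (limma adjusted p up to 0.0682).

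Of 48 symbols of flowering genes, 35 were tested, 1 rose and 2 fell, and the median log2 change was -0.21. COL22, a CONSTANS-like gene, had 399.1, 708.6 and 911.0 in the controls and 55.5, 90.2 and 96.4 in the heat libraries, with a log2 change of -3.0 ± 0.4 (limma adjusted p 0.00531), and its call held in all 6 leave-one-out fits. COL21, another CONSTANS-like gene, went the opposite way, with 7565, 7861 and 5752 in the controls and 19196, 18050.4 and 37582 in the heat libraries and a log2 change of 1.75 ± 0.42 (limma adjusted p 0.0484). Library 3 was the highest for COL21, and its call was lost in all 6 leave-one-out fits (limma adjusted p up to 0.162), without the filter on low values, without the variance trend and with only the 6 libraries. GMFT5A, a florigen gene that promotes flowering in soybean, had 1873, 1998 and 1760.3 in the controls and 365.7, 372.7 and 948.3 in the heat libraries, with a log2 change of -1.89 ± 0.32 (limma adjusted p 0.0124). That call was lost in 5 leave-one-out fits (limma adjusted p up to 0.0648).

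Several other florigen genes split the heat group. FT6 and GMFT3A were named because they were called only without library 3. FT2C, also tested, was not called in the full fit (-0.79 (limma adjusted p 0.715)). FT6 had 769.2, 710.1 and 550.2 in control, 0 and 1.9 in heat libraries 1 and 2 and 440.2 in library 3. GMFT3A had 138.3, 299.4 and 217.6 in control, no read in heat libraries 1 and 2 and 262.5 in library 3. GMFT3B had 21.1, 33.5 and 23 in control, again no read in libraries 1 and 2 and 10.7 in library 3. In these 3 genes heat stress libraries 1 and 2 held nearly no reads, while library 3 kept a part or all of the control level. FT2B and GMFT2A were reduced less in libraries 1 and 2, to 68.1 and 144.1 and to 1787 and 1398, against 748.3 and 5017 in library 3 and 580.5 to 1125 and 3615 to 4603 in control. Without library 3, FT2B, GMFT2A, FT6, GMFT3A and GMFT3B were among 10 flowering genes called lower (7.18% of all genes were), none being called higher, with log2 changes of -2.97 (limma adjusted p 0.00137) for FT2B and -1.41 (limma adjusted p 0.00989) for GMFT2A. With it, none of these 5 was called, and the log2 change of FT6 was -5.96 (limma adjusted p 0.0748). TFL1.4, of the FT relatives that hold back flowering, had 309.2, 327.6 and 241.6 in control and 39.1, 15.8 and 165.2 in heat, with -2.6 (limma adjusted p 0.0607) in the full fit and -3.49 (limma adjusted p 0.00233) without library 3.

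Some genes of the daily clock also differed between library 3 and the other heat libraries. The 4 morning genes tested (LCL1, LCL3, LCL4 and MYB114) were all above the controls in heat stress library 3, and 3 and 4 of them were below all controls in libraries 1 and 2. LCL1 had 2815, 2519 and 1906 in control and 1429, 1097 and 6104 in heat. Neither fit called any of the 4. Of 12 evening genes tested, 8 were below all controls in library 3 and 4 and 5 in libraries 1 and 2. Of all genes tested, 35.9% were below in library 3 and 35.6% and 35% in libraries 1 and 2, so the counts of libraries 1 and 2 are at the background. GMLUXB had 324.2, 278.9 and 426.7 in control and 122.3, 115.2 and 9.8 in heat, not called (-2.66 (limma adjusted p 0.126)). The evening gene that fell was ELF3A, which had 2352, 2885 and 2277 in the controls and 1349, 974.9 and 758.1 in the heat libraries, with a log2 change of -1.32 ± 0.27 (limma adjusted p 0.0274). It was lower in every heat library, library 3 included, and its call was lost in 4 of the leave-one-out fits (limma adjusted p up to 0.112). The part of the clock genes in the other differences of library 3 was not tested.

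**Figure D4:**
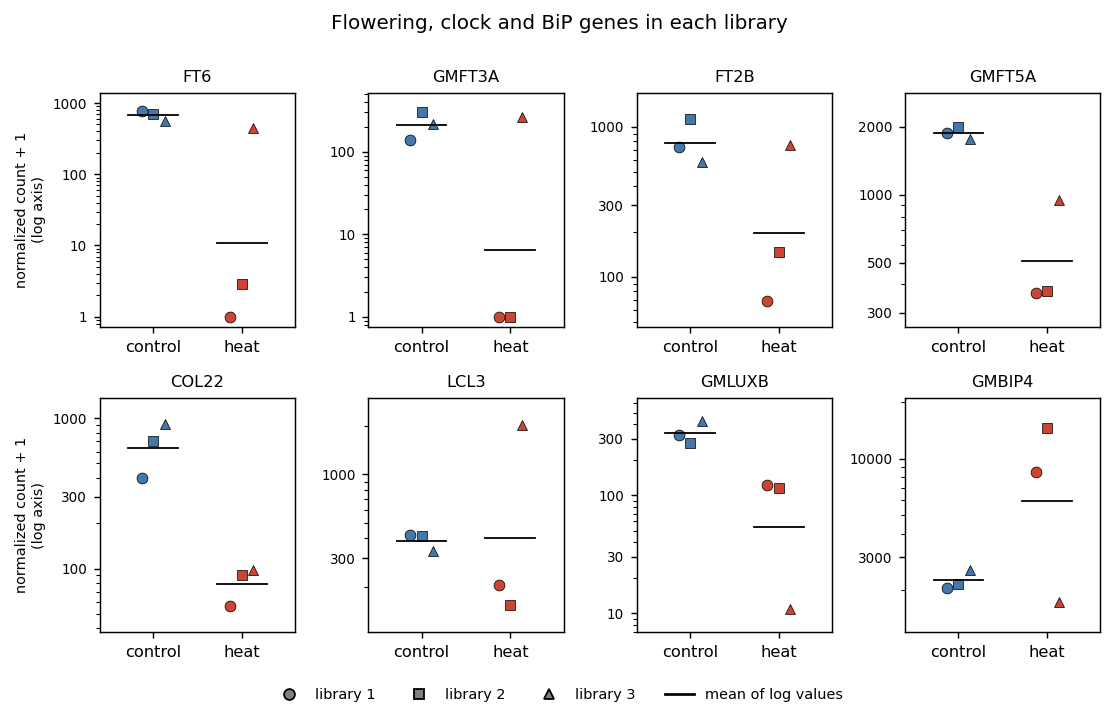
Normalized count + 1 (log axis) of flowering genes (FT6, GMFT3A, FT2B, GMFT5A, COL22), clock genes (LCL3, GMLUXB) and GMBIP4 in the 3 control (blue) and 3 heat stress (red) libraries; circles, squares and triangles are libraries 1, 2 and 3 and the line is the mean of the log values. Library 3 of heat stress departs from libraries 1 and 2 in FT6, GMFT3A, FT2B, LCL3, GMLUXB and GMBIP4, and lies with them, below all controls, in COL22.

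In 4 lists of transcription factors the share called was near or under the background of 3.19%. None of 28 genes whose symbol or synonym starts with NAC or GMNAC was called. SNAC41, a symbol that this list did not take, fell and is given with the large falls. Of 59 WRKY genes only WRKY1 fell, of 59 MYB genes MYB183 and MYB138 rose, and of 83 bZIP genes BZIP77 and BZIP99 rose and GMBZIP61 fell. MYB183 had 797.4, 640.8 and 860.8 in the controls and 1614, 1583 and 1632 in the heat libraries, with a log2 change of 1.08 ± 0.2 (limma adjusted p 0.0174), and MYB138 had 1137, 675.0 and 761.5 in the controls and 2458, 2441 and 2217 in the heat libraries, with a log2 change of 1.5 ± 0.33 (limma adjusted p 0.0347). WRKY1 had 353.3, 377.9 and 262.5 in the controls and 117.3, 132.9 and 46.4 in the heat libraries, with a log2 change of -1.85 ± 0.4 (limma adjusted p 0.0331). GMBZIP61 had 148.0, 170.7 and 183.0 in the controls and 58, 48.3 and 57.2 in the heat libraries, with a log2 change of -1.6 ± 0.21 (limma adjusted p 0.00531), and its call held in all 6 leave-one-out fits. Those of MYB183 and MYB138 were lost in 4 and 5 of them and those of WRKY1, BZIP77 and BZIP99 in 5 (limma adjusted p up to 0.14, the value of BZIP77). Of 19 genes of the DREB and ERF families, which answer cold, drought and ethylene, ERF7 and EREB fell and none rose. ERF7 had 10617, 11284 and 10935 in the controls and 4106, 4888 and 7381 in the heat libraries, with a log2 change of -1.05 ± 0.22 (limma adjusted p 0.0305), and EREB had 3419, 3457 and 2937 in the controls and 1048, 1459 and 2081 in the heat libraries, with a log2 change of -1.15 ± 0.23 (limma adjusted p 0.0257). Both were lower in each heat library, library 3 nearest to the controls, and both calls were lost in 5 leave-one-out fits (limma adjusted p up to 0.14 and 0.104). WRKY54 split the heat libraries, with 30.3 and 39 in libraries 1 and 2 and 217.0 in library 3 against 292.9 to 529.5 in control (-3.54 (limma adjusted p 0.00217) without library 3 and -2.66 (limma adjusted p 0.0526) with it).

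In 3 lists of lipid, secondary and antioxidant metabolism 1 gene each was called, which is near or under the background of 3.19%. Of 26 genes of fatty acid synthesis and desaturation, KASII-B rose, a gene of the enzyme that extends palmitate to stearate, with 2663, 2525 and 3205 in the controls and 5174, 4981 and 4678 in the heat libraries and a log2 change of 0.83 ± 0.18 (limma adjusted p 0.0315). Its call was lost in 5 leave-one-out fits (limma adjusted p up to 0.128). FAD2-2, an oleate desaturase gene with the highest mean count of the list, had 10905, 9509 and 11425 in control and 38279.7, 47282 and 12455 in heat, library 3 close to the controls, and was not called (1.42 (limma adjusted p 0.241)). Without library 3, 6 genes of the list were called higher and none lower, against 7.25% and 7.18% of all genes tested. Of 47 phenylpropanoid and isoflavonoid genes CHI2-A fell, a chalcone isomerase gene, with 104.8, 106.7 and 118.2 in the controls and 18.9, 16.7 and 13.4 in the heat libraries and a log2 change of -2.69 ± 0.41 (limma adjusted p 0.00891), and its call held in all 6 leave-one-out fits. Of 55 genes of antioxidant enzymes and glutathione transferases SOD1 rose and none fell, with a median log2 change of -0.4, and 13 were called lower and 1 higher without library 3, against 7.18% and 7.25% of all genes tested. CAT4 (catalase), with the highest mean count of that list, overlapped between groups at 67253, 63761 and 79526 in control and 65353, 61676 and 106319.6 in heat.

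No gene passed in 5 further lists, which are too short to tell this from the background of 3.19%. They held 8 genes of late embryogenesis abundant proteins and dehydrins, 8 of storage proteins and lipoxygenases, 13 aquaporins, 15 auxin genes and 8 of abscisic acid and ethylene, and their median log2 changes were -0.85, 0.35, 0.2, -0.39 and 0.07. In 4 of these lists the member with the highest mean count is given next. PM23, of the late embryogenesis list, had 3429, 2458 and 4577 in heat against 1781 to 2512 in control. VLXB, of the storage protein and lipoxygenase list, had 39049, 50448 and 114534 against 57151 to 77908. GMSNRK1, of the abscisic acid and ethylene list, had 1686, 1442 and 1679 against 1478 to 1615, and ARF, of the auxin list, had 10122, 7058 and 37546 against 9389 to 13928. In VLXB, GMSNRK1 and ARF the heat libraries lay on both sides of the control range, and in PM23 2 of the 3 were above it. DEHYDRIN, a gene of a protein that protects drying cells, had 15, 7.6 and 26.1 in control and 1.3, 13.9 and 17 in heat, a group overlap with -0.87 (limma adjusted p 0.741). The aquaporin gene GMNIP2-2 stood at 1559.8 and 1424 in heat libraries 1 and 2 and 108.9 in library 3, against 109.0 to 412.3 in control. Its log2 change was 2.64 (limma adjusted p 0.0375) without library 3 and 1.38 (limma adjusted p 0.443) with it.

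**Figure D5:**
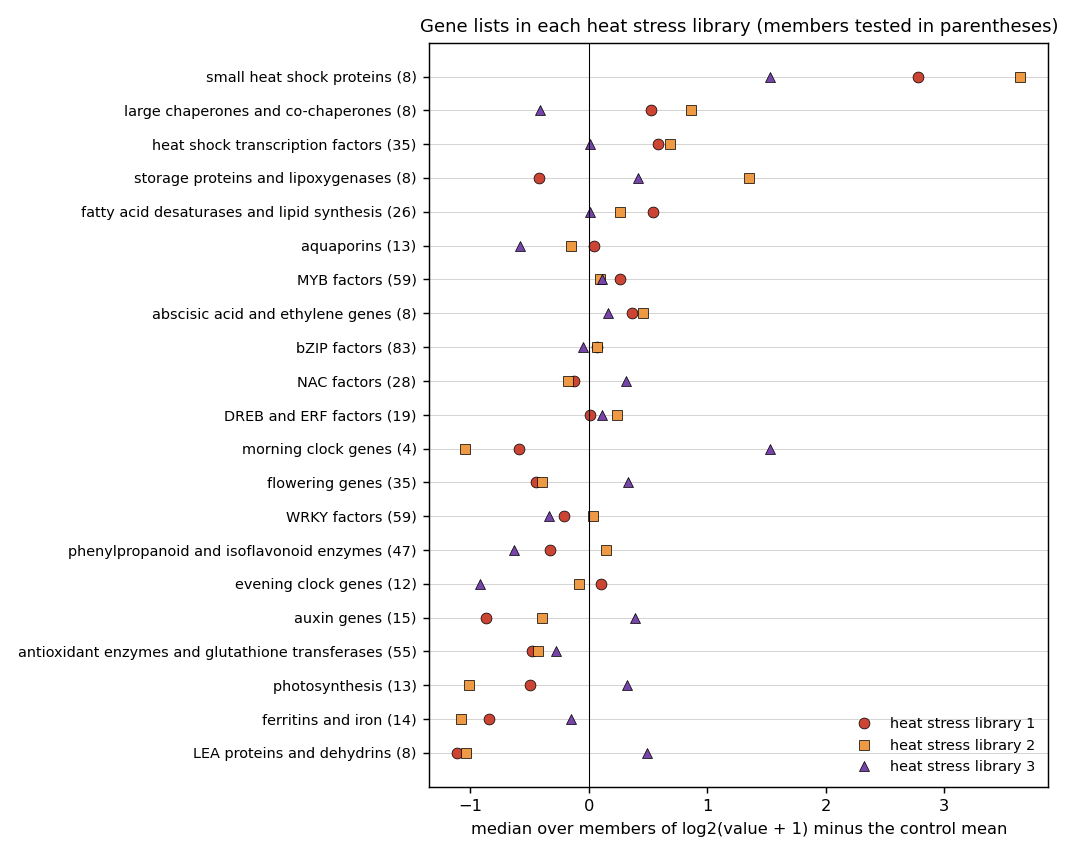
Median over the members of each gene list of log2(normalized count + 1) minus the mean of the 3 control libraries (horizontal axis), for heat stress libraries 1 (circles), 2 (squares) and 3 (triangles); the number of members tested is in parentheses. Small heat shock proteins are above 0 in all 3 libraries (2.78, 3.64 and 1.53). Library 3 lies on the other side of 0 from libraries 1 and 2 for morning clock genes, photosynthesis, flowering, auxin and late embryogenesis genes and the large chaperones. The same holds for NAC factors (-0.13, -0.18 and 0.31) and, by little, bZIP factors (0.07, 0.07 and -0.05).

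Several of the largest changes fell on genes that carry only a locus identifier. LOC106796068, a long noncoding RNA in the RefSeq table, had 15.9, 17.5 and 12.6 in the controls and 344.2, 159.9 and 589.4 in the heat libraries, with a log2 change of 4.31 ± 0.43 (limma adjusted p 0.00149), and its call held in all 6 leave-one-out fits. LOC100801279 and LOC100790356, protein-coding genes, had 30.8, 12.2 and 6.3 and 5.3, 6.9 and 16.7 in control and 646.9, 272.3 and 64.3 and 59.3, 480.5 and 76.8 in heat. Their heat libraries spread widely but stayed above the controls, with log2 changes of 3.96 (limma adjusted p 0.0166) and 3.78 (limma adjusted p 0.0297), calls lost in 4 and 5 leave-one-out fits. Among the large falls, LOC100778273 had 19678, 17843 and 4707 in the controls and 350.6, 221.2 and 3014 in the heat libraries, with a log2 change of -4.26 ± 0.91 (limma adjusted p 0.0319). LOC547698 had 1381, 1208 and 720.7 in the controls and 60.5, 16.7 and 193.8 in the heat libraries with a log2 change of -4.16 ± 0.69 (limma adjusted p 0.0121), and LOC100785183 had 609.7, 604.2 and 301.2 in the controls and 34, 1.9 and 122.3 in the heat libraries with a log2 change of -4.38 ± 1.05 (limma adjusted p 0.0464). LOC100800239 had 168.3, 150.9 and 288.7 in the controls and 0, 2.8 and 19.6 in the heat libraries, with a log2 change of -5.51 ± 0.92 (limma adjusted p 0.0124). All 4 falls kept the same order as the ferritins, with library 3 the highest of the heat libraries, and each was lost in 3 to 5 leave-one-out fits (limma adjusted p up to 0.143). SNAC41 and SGLU5, with no role given here, fell from 290.7, 207.2 and 178.9 and 349.8, 774.1 and 321.1 to 12.6, 24.2 and 74.1 and 29, 30.7 and 179.5, with log2 changes of -2.91 (limma adjusted p 0.0133) and -3.0 (limma adjusted p 0.0469). The call of SNAC41 was lost in 3 leave-one-out fits (limma adjusted p up to 0.0642), and that of SGLU5 in 5 (up to 0.177) and in 5 other settings.

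A further 11 called genes had at most 3 reads in every control library, and 5 had at most 3 in every heat library. They passed the filter on low values only through the group where they were high, so their values are a description. The share of all genes tested with so few reads in a group was not counted. The largest ratio among the former was that of LOC100775897, with 68.1, 317.8 and 178.6 normalized counts in heat stress libraries 1 to 3 and at most 2 reads in a control library, a mean at least 59.97-fold higher than the floor of 3 reads in a library (limma adjusted p 0.00388). LOC100791705 followed with 79.4, 145.0 and 35.7, at least 27.6-fold higher (limma adjusted p 0.00408). Floors cover counting error only, since reads are not independent molecules.

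Each heat library was placed against the control mean and the mean of the other 2 heat libraries. Over all 33000 genes tested, library 3 was nearer to the control mean for 59.5%, library 1 for 35.6% and library 2 for 38.7%. The same was counted over the genes called in the fit that left the library out, which differ between the libraries in number and make-up. Library 3 was nearer to the control mean for 3410 of 4761 such genes (71.6%). Libraries 1 and 2 were nearer to it for 9 of 158 (5.7%) and 23 of 253 (9.09%). Over the 2392 genes called higher without library 3, with a median log2 change of 1.15, the median difference of library 3 from the control mean was 0.32, and over the 2369 called lower (-1.33) it was -0.26. Library 3 lay inside the control range for 24.9% of the 4761 genes and for 29.6% of all genes tested, where libraries 1 and 2 lay inside it for 28.0% and 29.4%. Genes called only without it include GMMYB84, a MYB factor gene with 759.1 and 1642 in libraries 1 and 2 and 181.3 in library 3 (164.6 to 222.9 in control), and GMYABBY16, with 291.3 and 237.9 and 32.1 (19 to 76.7 in control). CHIA1 went the other way, with 15.1 and 7.4 in libraries 1 and 2 and 188.4 in library 3 (107.5 to 236.2 in control). The same control libraries enter both sides of this placement, so it is a description with no test. Ribosomal RNA of the organelles also differed: 11 such symbols took 0.194% and 0.128% of the reads in heat libraries 1 and 2, 0.0166% in library 3 and 0.0224% to 0.0449% in the controls, and its part in these differences was not tested.

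Set against water deficit in the same fit, heat stress differed in 5274 genes (16.0% of those tested). Controls do not enter the log2 difference itself, but they enter the estimate of spread behind its p-values. With only the 6 libraries of these groups in the fit the count was 2432. GM-ASNASE1 was higher in heat by 4.47 (limma adjusted p 8.57e-05) on the log2 scale, GMHSF-34 by 7.85 (limma adjusted p 8.24e-05) and HSP17.5-E by 4.26 (limma adjusted p 8.24e-05). Against control, the log2 changes of GM-ASNASE1, GMHSF-34 and HSP17.5-E were -1.35, -3.09 and -1.86 in water deficit alone. In combined stress they were 0.91, 5.4 and 3.07, all with the same controls, and no test of these changes is given here. GMHSF-34 had only 6.2, 10.7 and 26.1 in the controls and was lower still in water deficit. Its differences from water deficit therefore rest on few reads in that group. BAG6A was higher in heat than in water deficit by 5.61 (limma adjusted p 0.000659). MIR408A, H-1, SFERH-4 and CHI2-A were lower, by -3.72 (limma adjusted p 0.00181), -4.42 (limma adjusted p 0.00268), -3.15 (limma adjusted p 0.00268) and -3.77 (limma adjusted p 0.000779). For BCH4, BCH2, ELF3A, ERF7 and COL22 no difference between heat and water deficit was called (0.81 (limma adjusted p 0.0521), 0.71 (limma adjusted p 0.205), -0.56 (limma adjusted p 0.174), -0.68 (limma adjusted p 0.0565) and -1.09 (limma adjusted p 0.0856)). BCH5, the other beta-carotene hydroxylase gene that rose, was higher in heat than in water deficit by 1.9 (limma adjusted p 0.00865). AS2 and GS1GAMMA2, which fell in heat, had log2 changes of 0.9 and 0.63 in water deficit and 2.66 and 2.05 in combined stress, and differed between heat and water deficit by -5.53 (limma adjusted p 0.0048) and -5.16 (limma adjusted p 0.00348).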

How the data were processed

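RNA was extracted from leaves and sequenced with Illumina protocols, per the labels' protocols, in 12 libraries (4 groups of 3). The submitters' processing notes name cutadapt 1.18, FastQC 0.11.7, STAR 2.4.0.1 and DESeq2 1.20.0; the genome build, annotation, counting method and strand setting are not given in the sources used here. The deposited table holds 1 signal per gene and library that the authors normalized, and all 12 columns were used. Within a library, positive values were whole multiples of the value of 1 read (100% of values, tolerance 0.01 of a read), so the deposited signal is a count divided by a library factor, and whole reads were recovered for the alternatives.

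Genes averaging 10 or more over the 6 libraries compared were tested with limma 3.58.1 (R 4.3.3) on log2(normalized count + 1), a scale that understates the change of low genes. All 12 libraries entered 1 fit with a variance trend, two-sided tests and Benjamini-Hochberg adjustment over all 33000 genes, and calls were made at an adjusted p under 0.05. A low count was floored at 3 reads. edgeR 4.0.16 (quasi-likelihood, TMM) and DESeq2 1.42.0 served as alternatives, run on the recovered reads. On simulated counts for heat stress minus control (33000 genes, 200 changed), limma recovered 8% of 2-fold and 64% of 4-fold changes with 2 false calls, and DESeq2 30% and 81% with 51. Simulated libraries of a group shared a common mean per gene, so none departed from its group as heat stress library 3 does. These figures therefore need not hold for the real libraries.

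The genes named are the called genes with the largest changes, an average of 100 or more and no overlap between groups (6 rises and 6 falls of any symbol, and 10 rises and 8 falls with a symbol that does not start with LOC), up to 4 called members of each list with the member of highest mean, and 5 rises and 5 falls called only without heat stress library 3. Other members named were chosen after their values were seen. The members and lists were chosen with earlier results of these data known. Lists were formed from symbols and synonyms of the RefSeq table for Glycine_max_v4.0, which held 31598 (95.8%) of the genes tested; it was used for names and gene order only, and a list of sugar and trehalose genes was split into terpene synthases and sugar transporters.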

Additional observations from a re-analysis of the deposited data

How the results depend on the processing

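The count of genes called in heat stress against control (1053, with 584 higher and 469 lower) stayed within 1.5 times under 7 of the 9 settings that kept all 6 libraries compared (796 to 1168). With only the 6 libraries compared it was 333 (195 higher, 138 lower) and with DESeq2 3312 (1935 higher, 1377 lower). Leaving out 1 library gave 150 to 4761 genes (91 to 2392 higher, 51 to 2369 lower): 158 without heat stress library 1, 253 without library 2, 4761 without library 3, and 172, 150 and 183 without control library 1, 2 and 3. The count against water deficit (5274) was 2432 with only those 6 libraries and 2306 to 8204 without 1 library, settings chosen after seeing the data. Of 51 named genes called, none changed sign in any setting. With only the 6 libraries 28 lost their call, with edgeR 7, without the variance trend 7, with the same total per library 4 and without the filter on low values 3. No paired analysis was possible because the replicate numbers follow the order of the records and the labels name no shared plant or day. A planned count of heat shock elements in promoters was not run, since no promoter sequence was used here.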

Other observations

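Cyclophilins, folding enzymes grouped after the values were seen, numbered 53 tested genes, of which GMCYP37 rose and GMCYP23 fell. Their share called is near the background of 3.19%. GMCYP37 had 1416, 1429 and 1242 in the controls and 3590.0, 3188 and 2247 in the heat libraries, with a log2 change of 1.12 ± 0.19 (limma adjusted p 0.0124), and GMCYP23 had 1678, 1684 and 2301 in the controls and 942.0, 943.3 and 1138 in the heat libraries, with a log2 change of -0.89 ± 0.19 (limma adjusted p 0.0297). Both calls were lost in 5 leave-one-out fits (limma adjusted p up to 0.0642 and 0.126). None of 6 genes of folding in the endoplasmic reticulum, 13 terpene synthase genes and 15 sugar transporter genes was called, groupings made after the values were seen as well. These lists are too short to tell this from the background. GMTPS21, the terpene synthase gene with the highest mean count, had 5484, 4616 and 4812 in control and 9706, 30139.8 and 1982 in heat, the heat libraries lying on both sides of the controls.

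Among the genes with a place in the RefSeq table, 28 of 555 that rose (5.05%) stood next to another that rose, against 2.19% of all 31598 tested genes with a place. For genes that fell the figures were 14 of 440 (3.18%) and 1.64%. Neighbouring genes in soybean are often tandem copies, whose reads may be shared. Long noncoding RNAs made up 3.96% of the genes that rose, 2.27% of those that fell and 2.84% of all tested genes found in that table.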
